A study of Mus musculus with 23 samples.

Results

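Chromatin accessibility was compared between type 1 innate lymphoid cells (ILC1s) and natural killer (NK) cells sorted from the mouse liver, so that the cell type differed while the organ was held fixed. The comparison used 4 of the 23 samples of the series, 2 ATAC-seq libraries of liver ILC1s and 2 of liver NK cells, over all 51412 peaks of the deposited table. In ATAC-seq a transposase cuts and tags open DNA, and the reads in a peak measure how accessible that stretch is. The series also holds ATAC-seq of salivary gland ILC1s and of spleen NK cells, with 2 libraries each, and RNA-seq of 15 sorted liver samples.

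The liver ILC1s had the phenotype NK1.1+ NKp46+ CD49a+, and the liver NK cells were NK1.1+ NKp46+ CD49b+ and lacked CD49a, per the series' design text. The sample labels state other cell types for the same libraries. They give present granzyme C plus its fate-map mark for the ILC1s, and an S1pr5-eGFP reporter for the NK cells, so the gate of these libraries cannot be settled here. Salivary gland ILC1s and spleen NK cells carry the same pairs of descriptions. Each ATAC library came from 50000 sorted cells that had been frozen. The liver RNA groups were ILC1s with present granzyme C and the mark (DP, 4 libraries), with the mark alone (FMSP, 4), with neither (DN, 3), and S1pr5-eGFP+ NK cells (4), from 6 mice. Strain, sex and age are not given in the sources used here. The labels number the ATAC mice as replicates 1 and 2 in each group, without saying whether a number is the same animal in each group or a pool. The p-values for ATAC-seq therefore measure the spread between libraries, which may be partly technical. For the typical peak that spread was a value shared among peaks over all 8 ATAC libraries, and not that of its own liver libraries.

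ILC1s and NK cells are related lymphocytes that share NK1.1, NKp46 and the transcription factor T-bet. NK cells circulate, depend on Eomes, and kill with perforin and granzymes. Liver ILC1s stay in the sinusoids, depend on the factor Hobit, and display CXCR6, CD49a and the death ligand TRAIL. Both lineages make interferon gamma.

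The liver libraries held 5928045 and 9957335 counts in peaks for ILC1s, and 6390417 and 5609587 for NK cells, against 11101944 to 26944890 in the libraries of the other organs. Pearson's r of log2 CPM (CPM is a count scaled to a common library size, with TMM factors, which align the bulk of peaks between libraries) over the tested peaks was 0.957 between the ILC1 libraries, 0.947 between the NK libraries and 0.884 to 0.898 across the groups. Replicates differed by more than sampling noise. Technical differences can also give such a spread, so it does not settle whether they are independent animals. Each library was counted as a sample of its own. Promoter peaks took 57.2% and 60.4% of the counts in the ILC1 libraries, and 53.6% and 55.4% in the NK libraries. The values within the liver groups did not overlap, and the part of this gap in the results below was not tested except where a scaling is named.

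Both markers of the comparison lay on the side of their cell type. Cxcr6, the receptor for the sinusoidal chemokine CXCL16, had 25.6 and 26.4 CPM at its promoter peak (chr9:123806040-123806853 in mm10, centred 0.031 kb upstream of the RefSeq start) in liver ILC1s, against 3.92 and 2.41 CPM in liver NK cells. All 3 peaks assigned to Cxcr6 were higher in liver ILC1s, with log2 folds of 2.27 to 3.01, and the promoter peak had the largest rise of any called peak in the table (log2 fold 3.01 ± 0.28 SE, adjusted p = 4e-24). Zeb2, a zinc finger factor that promotes NK cell maturation, had 3.14 and 3.12 CPM in liver ILC1s at a promoter peak (chr2:45114497-45115188), against 17.5 and 25.4 CPM in liver NK cells, a log2 fold of -2.76 ± 0.27 (adjusted p = 4.7e-21). Of the 9 Zeb2 peaks, 2 were lower and 1 was higher. Ncr1 and Klrb1c, whose products mark both cell types, were not called at their strongest peaks. Ncr1, which encodes NKp46, had 73.6 and 105 CPM at its strongest peak in liver ILC1s and 62.5 and 67.4 CPM in liver NK cells (log2 fold 0.47 ± 0.20, adjusted p = 0.0862), and 0 of its 4 peaks were called with edgeR and with DESeq2, with 1 at an unadjusted p below 0.05. Without ILC1 library 1 that peak was called higher, at 0.70. Klrb1c, which encodes NK1.1, had 29.2 and 40.3 CPM in liver ILC1s and 33.0 and 39.7 CPM in liver NK cells at its strongest peak (log2 fold -0.05 ± 0.19, adjusted p = 0.883), and 1 of its 4 peaks was lower.

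The sequences before the start sites of 5 genes are shown because the peaks over them carry clear differences in opposite directions. Each is the 250 bases upstream of the start, 5′ to 3′ on the gene's strand, from RefSeq (GRCm38.p6, the assembly that mm10 also names). Capitals mark matches, on either strand, to any of 15 short factor patterns that were searched by letter.
Cxcr6 (chr9:123806227-123806476, + strand; peak higher in liver ILC1s): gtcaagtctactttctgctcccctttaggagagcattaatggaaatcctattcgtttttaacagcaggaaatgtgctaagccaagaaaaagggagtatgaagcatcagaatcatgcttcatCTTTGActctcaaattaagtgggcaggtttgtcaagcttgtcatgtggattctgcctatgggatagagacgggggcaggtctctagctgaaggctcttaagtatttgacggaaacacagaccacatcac
Il2 (chr3:37125955-37126204, - strand; peak higher in liver ILC1s): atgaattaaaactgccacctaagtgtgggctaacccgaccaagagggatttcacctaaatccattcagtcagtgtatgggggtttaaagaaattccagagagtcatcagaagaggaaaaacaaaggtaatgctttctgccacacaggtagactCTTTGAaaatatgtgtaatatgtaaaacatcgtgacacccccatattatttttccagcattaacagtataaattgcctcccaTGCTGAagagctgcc
Ltb (chr17:35194257-35194506, + strand; peak higher in liver ILC1s): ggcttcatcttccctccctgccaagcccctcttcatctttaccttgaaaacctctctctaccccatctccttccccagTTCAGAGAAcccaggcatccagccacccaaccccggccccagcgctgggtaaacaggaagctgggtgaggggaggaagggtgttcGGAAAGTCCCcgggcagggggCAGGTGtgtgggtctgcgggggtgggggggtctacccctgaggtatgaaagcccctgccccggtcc
Eomes (chr9:118477939-118478188, + strand; peak lower in liver ILC1s): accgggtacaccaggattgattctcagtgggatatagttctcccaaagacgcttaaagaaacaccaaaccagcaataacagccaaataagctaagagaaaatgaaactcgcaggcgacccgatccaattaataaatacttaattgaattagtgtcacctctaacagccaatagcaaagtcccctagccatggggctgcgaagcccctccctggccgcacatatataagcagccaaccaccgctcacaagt
Gzmm (chr10:79688770-79689019, + strand; peak lower in liver ILC1s): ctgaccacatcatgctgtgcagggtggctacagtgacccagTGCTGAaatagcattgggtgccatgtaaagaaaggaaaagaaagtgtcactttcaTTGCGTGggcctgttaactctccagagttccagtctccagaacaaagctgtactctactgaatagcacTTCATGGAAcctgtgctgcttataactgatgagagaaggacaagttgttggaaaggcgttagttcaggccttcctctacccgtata

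The Cxcr6 window held 1 match to the TCF and LEF pattern CTTTGA. That of Il2 held the same pattern and the MAF pattern TGCTGA. In the Ltb window the matches were to the NF-kB pattern, the STAT pattern TTCNNNGAA and the ZEB pattern CACCTG, and in the Gzmm window to MAF, STAT and the AHR pattern TTGCGTG. The Eomes window held none of the 15. The others searched were T-box (AGGTGNGA), RUNX (TGTGGTT), ETS (AGGAAGT), AP-1 (TGANTCA), KLF (GGGTGTGG), NR4A (AAAGGTCA), SMAD (GTCTAGAC), Hobit and Blimp1 (AGTGAAAG) and CTCF. The ZEB letters can share bases with the T-box pattern. Shares of windows with a match were compared for all 15, and 5 of them are given here. Of RefSeq windows of 300 bases over tested promoter peaks, CTTTGA occurred in 10.5% of 2077 windows over higher peaks, in 17.3% of 231 over lower peaks and in 11.3% of all 12229, against 16.0% of all 32851 windows in the table. The ZEB pattern occurred in 20.3%, 17.3%, 18% and 20.2% of the same sets, and the T-box pattern in 5.10%, 6.06%, 4.91% and 5.43%. The Hobit and Blimp1 pattern occurred in 0.578% of the windows over higher peaks, 0.433% over lower peaks and 1.18% of all over tested peaks. The NR4A pattern occurred in 14 windows over higher peaks (0.674%), 6 over lower peaks (2.6%) and 0.826% of all over tested peaks. Base composition differed as well, with a GC content of 62.6% in windows over higher peaks, 57.8% over lower peaks and 61.7% over all tested promoter peaks, and its part in the shares was not tested. A match is a description of letters and not a site.

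Liver ILC1s and liver NK cells differed at 9583 of 51292 tested peaks (18.7%), with 5044 higher (9.83%) and 4539 lower (8.85%) in liver ILC1s. Differences were tested peak by peak with edgeR's quasi-likelihood test, and a call is a Benjamini-Hochberg adjusted p below 0.05. The liver groups did not overlap at 9530 of the called peaks. A call at this threshold makes that likely, and the share over all tested peaks was not computed, so the count adds no support. Called peaks were mostly moderate in size, with a median log2 fold of 0.79 among the higher and -1.02 among the lower. Large differences were more often losses. A log2 fold of 1 or more was reached by 1374 of the higher peaks (2.68% of all tested), and one of -1 or less by 2368 of the lower peaks (4.62%). Without ILC1 library 2, the deepest liver library, 4305 peaks were called, 1712 higher and 2593 lower. Without ILC1 library 1, 11437 were called, 6548 higher and 4889 lower. Leaving out NK library 1 gave 5752 calls, 2630 higher and 3122 lower, and leaving out NK library 2 gave 6220, 3523 higher and 2697 lower. In bulk samples, fewer cells with an open site and less opening per cell cannot be told apart.

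**Figure D1:**
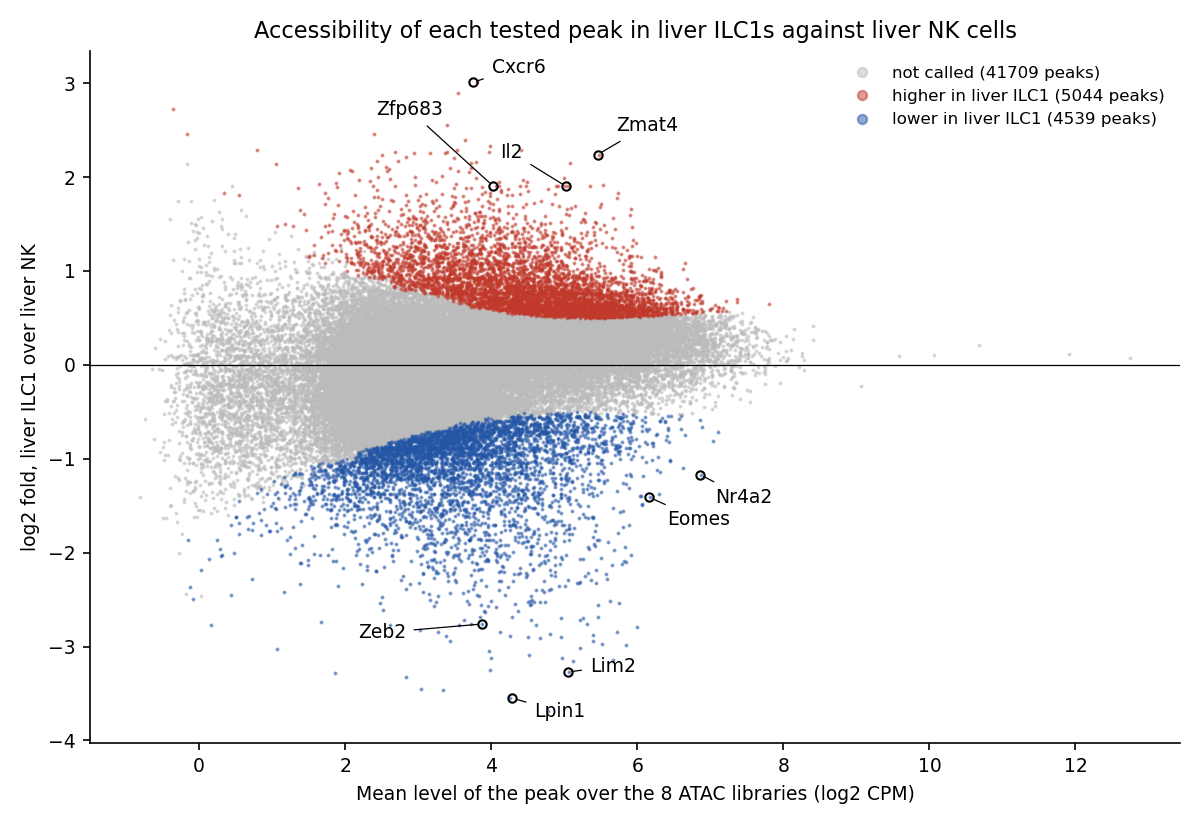
Each point is a tested peak, placed by its mean level over the 8 ATAC libraries (log2 CPM, x axis) and its log2 fold of liver ILC1s over liver NK cells (y axis); red peaks were called higher, blue peaks lower, and grey peaks were not called. Cxcr6 stands at the top with a log2 fold of 3.01, and Lpin1 lies near the bottom with -3.55.

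Promoter peaks had more higher and fewer lower calls than other peaks. Of 17983 promoter peaks 13.7% were higher and 4.86% lower in liver ILC1s (median log2 fold 0.19), whereas of the 33309 other peaks 7.72% were higher and 11% lower (median -0.12). With loess offsets 9.88% of promoter peaks were higher and 8.19% lower (median 0.06), and of other peaks 7.57% and 11.3% (median -0.06). With scaling on promoter peaks alone the promoter shares were 7.58% and 8.63% (median 0.00), and the other shares 4.72% and 16.2% (median -0.31). Promoters thus still stood above other peaks with loess offsets, by a smaller gap in medians. Scaling on promoter peaks alone applies the same factor to every peak of a library, so it cannot test the difference between classes. The split of all calls moved under both. Scaling on promoter peaks alone gave 2935 higher and 6937 lower peaks in all, in place of 5044 and 4539, and put the median of all peaks at -0.19. Loess offsets gave 4296 higher and 5227 lower in all. Scaling each class on its own centres both classes by construction, so the shares it gave (7.95% and 8.89% of promoters, 8.43% and 9.19% of others) do not bear on the difference between classes. A small rise at a promoter, such as the log2 fold of 0.56 ± 0.21 at Actb (adjusted p = 0.0485), is therefore within the range that scaling moves. That housekeeping peak, which had 89.1 and 112 CPM in liver ILC1s and 59.9 and 77.2 CPM in liver NK cells, lost its call when promoter and other peaks were scaled apart and under 5 other settings. Of the 28 peaks of cell cycle and housekeeping genes, 1 was higher and 1 lower (3.57% each, beside 9.83% and 8.85% of all tested peaks). The lists of NK cell, liver ILC1, egress, residency, cytokine and inhibitory receptor genes kept their direction of calls under every scaling run and DESeq2. Peaks without an assigned gene leaned to liver NK cells, with 5.63% higher and 13.8% lower of 5504.

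**Figure D2:**
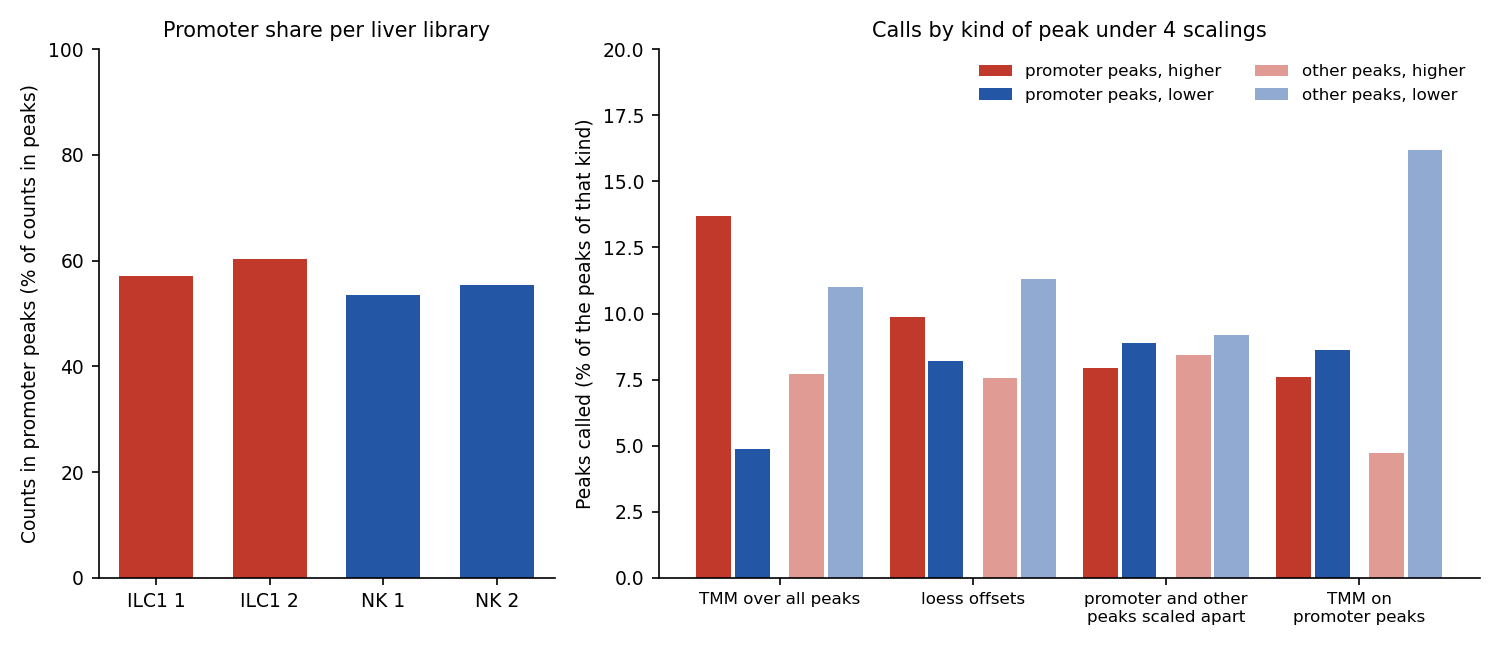
The left panel shows the share of each liver library's counts that fell in promoter peaks (percent), with ILC1 libraries in red and NK libraries in blue, and the right panel the share of promoter peaks (dark) and of other peaks (light) called higher (red) or lower (blue) under 4 scalings. Promoters exceed other peaks in higher calls under TMM over all peaks (13.7% against 7.72%) and loess offsets (9.88% against 7.57%). Scaling on promoter peaks (7.58% against 4.72%) applies the same factor to every peak of a library, so it cannot test this gap. Scaling the classes apart balances each by construction.

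Genes of the liver ILC1 programme were more often higher than lower in liver ILC1s. Like the other lists, this one was chosen with earlier results of these data known, and 19 of its 20 genes were higher in RNA. Its lean at peaks therefore adds no independent support. Of 144 peaks of liver ILC1 genes, 51 were higher (35.4%) and 9 lower (6.25%), beside 9.83% and 8.85% of all tested peaks. The median log2 fold of the list was 0.29, beside 0.00 for all peaks. Without ILC1 library 2 the counts were 28 higher and 5 lower. Higher peaks occurred at 16 of the 19 genes with a tested peak, at 11 of them with no lower peak. Zfp683, which encodes Hobit, had all 5 of its peaks called higher. Its promoter peak (chr4:134052365-134053914) had 22.0 and 37.6 CPM in liver ILC1s, against 7.57 and 8.53 CPM in liver NK cells (log2 fold 1.91 ± 0.23, adjusted p = 4.2e-14). Itga1, the CD49a integrin chain that the design text names for these cells, had 6 of 13 peaks higher and 0 lower. An intronic Itga1 peak had 17.6 and 24.1 CPM in liver ILC1s and 5.87 and 5.31 CPM in liver NK cells (log2 fold 1.91 ± 0.25, adjusted p = 2e-12). The liver groups did not overlap at these Zfp683 and Itga1 peaks, as at nearly all called peaks. Tnfsf10, the TRAIL gene, had an intronic peak with 57.9 and 72.5 CPM in liver ILC1s, against 28.1 and 32.0 CPM in liver NK cells (log2 fold 1.12 ± 0.20, adjusted p = 6.3e-07). Of the 7 Tnfsf10 peaks 3 were higher and 1 was lower, with a lowest log2 fold of -1.41. Gzmc, which encodes the granule protease granzyme C, had 12.9 and 20.1 CPM at its promoter in liver ILC1s and 5.87 and 4.50 CPM in liver NK cells (log2 fold 1.67 ± 0.27, adjusted p = 5e-08). The sample labels name granzyme C for these libraries, so this peak may be tied to the sort.

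Receptors and signal genes of the same programme followed. Il7r, the interleukin 7 receptor chain, had 23.3 and 29.9 CPM at a promoter peak in liver ILC1s and 10.6 and 11.3 CPM in liver NK cells (log2 fold 1.30 ± 0.24, adjusted p = 4.6e-06), while another of its 3 peaks was lower. Cd200r2, a receptor of the CD200 receptor family, had 17.5 and 25 CPM at its promoter in liver ILC1s, against 6.92 and 5.31 CPM in liver NK cells (log2 fold 1.8 ± 0.26, adjusted p = 1.1e-09). Asb2, a subunit of a ubiquitin ligase, had 48.9 and 61.1 CPM in an intronic peak in liver ILC1s against 16.8 and 19.1 CPM in liver NK cells (log2 fold 1.62 ± 0.20, adjusted p = 5.9e-14). Il2ra, the high-affinity interleukin 2 receptor chain, had 10.9 and 17.7 CPM at an intronic peak in liver ILC1s, against 3.65 and 2.25 CPM in liver NK cells (log2 fold 2.26 ± 0.32, adjusted p = 2.9e-10). Of the 7 Il2ra peaks 3 were higher and 1 was lower. The liver groups stood apart at each peak given here with its CPM, as at nearly all called peaks. Rises were smaller at Tmem176a, a membrane channel gene (0.97 ± 0.28, adjusted p = 0.0049), and at Pdcd1, which encodes the checkpoint receptor PD-1 (0.63 ± 0.21, adjusted p = 0.0194). The Pdcd1 call was lost without ILC1 library 2, without NK library 1 and with the liver libraries fitted alone, and the Tmem176a call without NK library 2 and under scaling on promoter peaks.

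**Figure D3:**
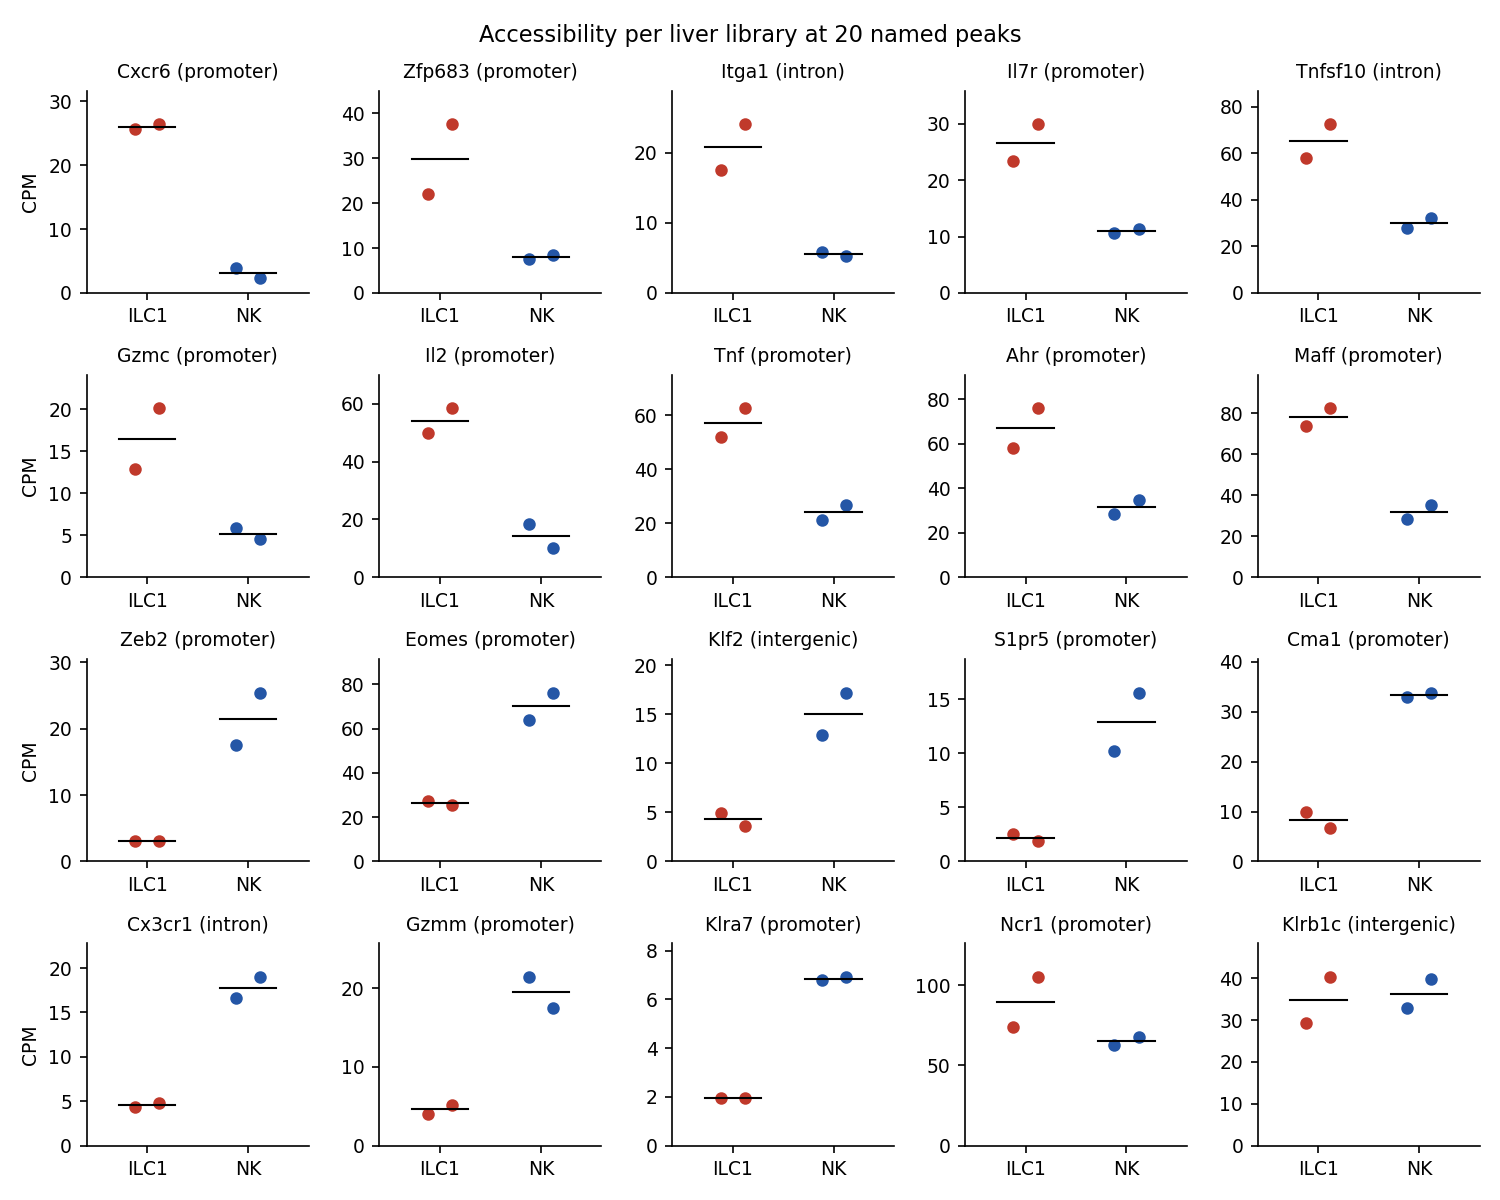
Each panel shows 1 named peak, with CPM on the y axis from 0, the 2 liver ILC1 libraries in red on the left, the 2 liver NK libraries in blue on the right, and the group mean as a bar. The groups overlap at Klrb1c and are apart at the others shown, including Ncr1, where the difference was not called.

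Genes of tissue residency and adhesion leaned the same way, with 32 of 89 peaks higher (36.0%) and 11 lower (12.4%) and a median log2 fold of 0.22 (21 higher and 9 lower without ILC1 library 2, and 27 and 7 without NK library 2). Among all tested peaks 9.83% were higher and 8.85% lower, so both shares of this list lay above those of all peaks. Members of the list did not all move together. Itgae, the CD103 integrin chain, had 4.34 and 3.41 CPM at an exonic peak in liver ILC1s, against 18.3 and 24.0 CPM in liver NK cells (log2 fold -2.46 ± 0.27, adjusted p = 2.2e-17), and another of its 6 peaks was higher. Cd69, an early activation and retention marker, had 1 of 5 peaks higher at a log2 fold of 0.53 ± 0.20 (adjusted p = 0.0433), with 38.3 and 56.3 CPM in liver ILC1s and 33.7 and 32.3 CPM in liver NK cells. That call was lost under 9 of the 14 other settings, including DESeq2. P2rx7, a receptor for extracellular ATP, had 31.7 and 36.1 CPM at a promoter peak in liver ILC1s, against 9.27 and 6.43 CPM in liver NK cells (log2 fold 2.10 ± 0.25, adjusted p = 4.2e-15).

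Cytokine and chemokine genes had 17 of 49 peaks higher (34.7%) and 3 lower (6.12%), beside 9.83% and 8.85% of all tested peaks. The median log2 fold of the list was 0.32. The higher count was 8 without ILC1 library 2 (4 lower) and 8 without NK library 1 (3 lower). Il2, the T cell growth factor, was the clearest. Its promoter peak had 50 and 58.4 CPM in liver ILC1s and 18.5 and 10.1 CPM in liver NK cells (log2 fold 1.90 ± 0.20, adjusted p = 8.3e-19), and both of its peaks were higher. The neighbouring lymphotoxin and tumour necrosis factor genes on chromosome 17 rose together. Lta had 23.9 and 22.7 CPM in liver ILC1s, against 6.92 and 8.69 CPM in liver NK cells (log2 fold 1.59 ± 0.24, adjusted p = 5.1e-09). Tnf had 52.0 and 62.6 CPM in liver ILC1s and 21.3 and 26.7 CPM in liver NK cells (log2 fold 1.27 ± 0.19, adjusted p = 3.3e-09). Ltb had 68.9 and 92.5 CPM in liver ILC1s and 30.4 and 29.0 CPM in liver NK cells (log2 fold 1.45 ± 0.20, adjusted p = 2.2e-11). Each of these was a promoter peak. Csf2, which encodes the growth factor GM-CSF, had 28.4 and 35.3 CPM at an intergenic peak in liver ILC1s, against 13.7 and 10.6 CPM in liver NK cells (log2 fold 1.39 ± 0.21, adjusted p = 3.5e-09). Ifng, the interferon gamma gene, went both ways. A peak centred 14.9 kb downstream of its start had 2.84 and 0.975 CPM in liver ILC1s and 9.40 and 12.5 CPM in liver NK cells (log2 fold -2.61 ± 0.39, adjusted p = 1.1e-09), while its promoter peak was called higher at 0.55 ± 0.19 (adjusted p = 0.0268), a call lost under DESeq2 and 8 other settings.

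Inhibitory receptor genes had 13 of 49 peaks higher and 5 lower, but 5 higher and 5 lower without ILC1 library 2, 8 and 4 without NK library 1, and 12 and 3 without NK library 2. Cytokine receptor genes had 11 of 57 higher and 9 lower, a split that turned to 6 and 12 under promoter-only scaling, and to more lower peaks with library totals and loess offsets. With all libraries, inhibitory receptors reached 26.5% higher and 10.2% lower, and cytokine receptors 19.3% and 15.8%, beside 9.83% and 8.85% of all tested peaks. TGF-beta pathway genes had 17 of 104 higher (16.3%) and 8 lower (7.69%). ITAM adaptor and signal genes had 10 of 105 higher (9.52%) and 11 lower (10.5%), near the shares of all peaks. Single libraries moved these counts as well. Without ILC1 library 2, cytokine receptor genes had 4 higher and 6 lower, TGF-beta pathway genes 7 and 5, and ITAM genes 3 and 10. Without NK library 1, cytokine receptor genes had 6 and 7 and ITAM genes 3 and 14. Without NK library 2, they had 10 and 4, and 8 and 6, and without ILC1 library 1 the ITAM genes had 16 and 12. Lag3, a checkpoint receptor, had 22.0 and 30.3 CPM in liver ILC1s at a promoter peak, against 9.79 and 8.04 CPM in liver NK cells (log2 fold 1.56 ± 0.23, adjusted p = 2.1e-09). Cd160, a receptor shared by cytotoxic lymphocytes, rose by 0.82 ± 0.19 at its only peak (adjusted p = 0.00027). Cxcr3, a receptor for chemokines induced by interferon, had 60.9 and 67.3 CPM at an upstream peak in liver ILC1s, against 23.0 and 24.0 CPM in liver NK cells (log2 fold 1.45 ± 0.20, adjusted p = 1.6e-11).

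Conventional NK cell genes were more often lower than higher in liver ILC1s. This list too was chosen with earlier results of these data known, and all 20 of its genes were lower in RNA. Its lean at peaks therefore adds no independent support. Of the 89 peaks of the list 27 were lower (30.3%) and 9 higher (10.1%), beside 8.85% and 9.83% of all tested peaks. The median log2 fold was -0.24, and of the 32 promoter peaks 12 were lower and 0 higher. Without ILC1 library 2, 27 were lower and 5 higher. Eomes, the T-box factor of the NK lineage, had a single tested peak, with 27.1 and 25.7 CPM in liver ILC1s and 64.1 and 76.2 CPM in liver NK cells (log2 fold -1.41 ± 0.21, adjusted p = 1.2e-09). Cma1, a chymase gene, had 10.0 and 6.73 CPM at a promoter peak in liver ILC1s, against 33.0 and 33.8 CPM in liver NK cells (log2 fold -2.03 ± 0.22, adjusted p = 2.6e-18). Itga2, which encodes CD49b, named for the NK cells in the design text, had 4 of 9 peaks lower and 2 higher. Its clearest peak had 25.6 and 27.6 CPM in liver ILC1s and 55.2 and 64.7 CPM in liver NK cells (log2 fold -1.17 ± 0.20, adjusted p = 3.1e-07). Such mixed loci recurred among genes of NK maturation. Itgam, the CD11b integrin chain, had an intronic peak at -1.51 ± 0.22 (adjusted p = 1.1e-09), while its strongest peak, also intronic, was called higher at 0.56 ± 0.19 (adjusted p = 0.022), a call lost under 7 other settings. Klrg1, an inhibitory receptor of mature NK cells, had 2 of 6 peaks lower. Another, intergenic, was higher, with 22.7 and 24.3 CPM in liver ILC1s and 9.92 and 7.40 CPM in liver NK cells (log2 fold 1.43 ± 0.26, adjusted p = 1.2e-06).

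Egress and homing receptor genes had the highest share of lower peaks among the 22 lists described, with 18 of 46 lower (39.1%) and 6 higher (13%). Over all tested peaks these shares were 8.85% and 9.83%. The median log2 fold of the list was -0.27. S1pr5, a receptor that guides NK cells out of tissue and whose reporter the labels name, had 2.54 and 1.85 CPM at a promoter peak in liver ILC1s and 10.2 and 15.6 CPM in liver NK cells (log2 fold -2.57 ± 0.34, adjusted p = 3.5e-12). It was the only 1 of 3 S1pr5 peaks called, and the median log2 fold of the 3 was 0.41. Klf2, the factor that drives egress receptors, had all 3 peaks lower. Its promoter held 47.4 and 60.7 CPM in liver ILC1s and 73.5 and 110 CPM in liver NK cells (log2 fold -0.75 ± 0.21, adjusted p = 0.00368), a call lost without NK library 2. A downstream peak showed the larger loss, with 4.94 and 3.61 CPM in liver ILC1s and 12.9 and 17.2 CPM in liver NK cells (log2 fold -1.84 ± 0.30, adjusted p = 8.7e-08). Cx3cr1, the fractalkine receptor of circulating cells, had 4.34 and 4.78 CPM at an intronic peak in liver ILC1s, against 16.6 and 19.0 CPM in liver NK cells (log2 fold -1.95 ± 0.28, adjusted p = 3e-10). S1pr1, the main lymphocyte egress receptor, was lower at 2 of 3 peaks, with a log2 fold of -0.89 ± 0.20 at the clearest (adjusted p = 0.00015).

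Cytotoxic granule and death ligand genes split by gene, with 12 of 55 peaks higher (21.8%) and 11 lower (20%), beside 9.83% and 8.85% of all tested peaks. Without ILC1 library 2, and likewise without NK library 1, the counts were 6 higher and 9 lower, and without NK library 2 they were 11 and 6. Gzmm, a granzyme of NK cells, had 4.04 and 5.17 CPM at its promoter in liver ILC1s and 21.4 and 17.5 CPM in liver NK cells (log2 fold -2.06 ± 0.27, adjusted p = 2.7e-12). Gzma, another granzyme, was lower at an intronic peak (-1.23 ± 0.25, adjusted p = 2.3e-05, not called without NK library 2), while its promoter had 19.9 and 21.8 CPM in liver ILC1s and 22.2 and 23.3 CPM in liver NK cells (log2 fold -0.12 ± 0.20, adjusted p = 0.732). Gzmb, the granzyme common to both lineages, rose at 3 of 4 peaks. The clearest lay 3.99 kb upstream, with 20.5 and 28.6 CPM in liver ILC1s against 8.88 and 9.17 CPM in liver NK cells (log2 fold 1.46 ± 0.23, adjusted p = 2.4e-08), whereas the promoter was not called (0.39 ± 0.20, adjusted p = 0.157). Prf1, the perforin gene, had 1 of 4 peaks called higher and 0 lower. Its promoter had 38.9 and 49.9 CPM in liver ILC1s and 56.6 and 66.3 CPM in liver NK cells (log2 fold -0.46 ± 0.20, adjusted p = 0.0912). It was called lower under 4 other scalings and without ILC1 library 2, with log2 folds of -0.71 to -0.56. Ly49, NKG2 and NKR-P1 receptor genes had 11 of 65 peaks lower and 4 higher (6 and 4 without NK library 2, 12 and 10 without ILC1 library 1). With all libraries the shares were 16.9% lower and 6.15% higher, beside 8.85% and 9.83% of all tested peaks. Of the 11 lower peaks 4 belonged to Klrb1a, 1 each to Klrb1b and Klrb1c, 2 to Klrg1, 1 to Klri2 and 2 to Klra7, the only Ly49 gene with a lower peak. Klra7 had at one of them 1.94 and 1.95 CPM in liver ILC1s, against 6.79 and 6.92 CPM in liver NK cells (log2 fold -1.81 ± 0.38, adjusted p = 5.2e-05). Klrc1, which encodes NKG2A, rose by 1.11 ± 0.21 at its promoter (adjusted p = 7.3e-06). Reads from near-identical Ly49 genes may be shared between them.

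**Figure D4:**
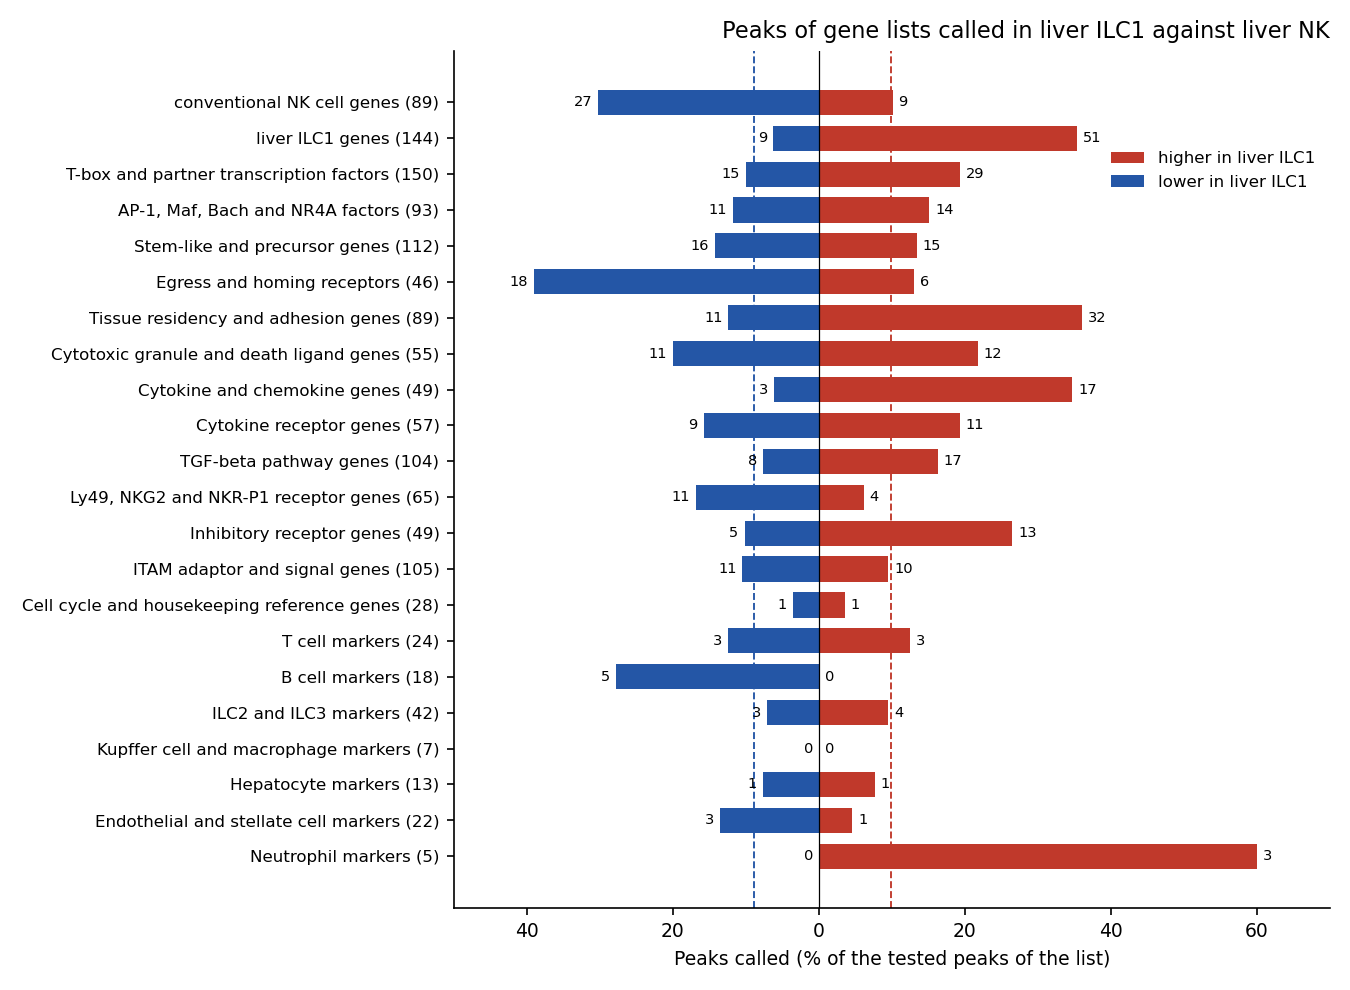
For each gene list, with its number of tested peaks in brackets, bars give the percent of peaks called higher (red, to the right) and lower (blue, to the left) in liver ILC1s against liver NK cells, and the number at a bar's end is the count. Dashed lines mark the shares over all tested peaks, 9.83% higher and 8.85% lower; egress genes reach 39.1% lower, and tissue residency genes 36.0% higher.

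Transcription factor genes were called in both directions, in counts that rested on single libraries. Of 150 peaks of T-box and partner factors 29 were higher (19.3%) and 15 lower (10%). Of 93 peaks of AP-1, Maf, Bach and NR4A factors 14 were higher (15.1%) and 11 lower (11.8%), beside 9.83% and 8.85% of all tested peaks. Under promoter-only scaling the T-box split became 20 higher and 26 lower, and the AP-1 split 7 and 18, and AP-1 factors also turned to more lower peaks with library totals, loess offsets and DESeq2. Without ILC1 library 2 the T-box list had 15 higher and 15 lower peaks and the AP-1 list 3 and 9. Without NK library 1 they had 19 and 13, and 6 and 7, and without NK library 2 the AP-1 list had 12 and 7. Id3, an inhibitor of E proteins, had 23.3 and 24.7 CPM at its promoter in liver ILC1s, against 6.92 and 9.33 CPM in liver NK cells (log2 fold 1.58 ± 0.24, adjusted p = 8.4e-09). Bcl11b, a T cell and ILC2 identity factor, had 24.2 and 31.1 CPM in liver ILC1s and 9.92 and 10.8 CPM in liver NK cells (log2 fold 1.43 ± 0.22, adjusted p = 9.6e-09). Ahr, the aryl hydrocarbon receptor, had 58.0 and 75.9 CPM at a promoter peak in liver ILC1s and 28.2 and 34.9 CPM in liver NK cells (log2 fold 1.09 ± 0.20, adjusted p = 2.1e-06). Another of the 4 Ahr peaks was lower. Maff, a small Maf protein, had 73.6 and 82.2 CPM at its promoter in liver ILC1s and 28.3 and 35.4 CPM in liver NK cells (log2 fold 1.30 ± 0.20, adjusted p = 1.1e-08). The liver groups did not overlap at these peaks either, as at nearly all called peaks. Gata3, needed for ILC2s and helper T cells, rose at an intronic peak by 1.76 ± 0.32 (adjusted p = 1.2e-06), with 0 of its other 4 peaks called.

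Stem-like and precursor genes had 15 of 112 peaks higher and 16 lower (7 and 7 without ILC1 library 2, 9 and 13 without NK library 1, 9 and 10 without NK library 2). With all libraries the shares were 13.4% higher and 14.3% lower, beside 9.83% and 8.85% of all tested peaks. Nr4a2, an orphan nuclear receptor induced by activation, had 42.5 and 47.3 CPM in liver ILC1s and 85.4 and 117 CPM in liver NK cells (log2 fold -1.17 ± 0.22, adjusted p = 2.8e-06). Bach2, a repressor of effector programmes, was lower at 4 of 24 peaks and higher at 1, with 6.73 and 6.34 CPM at the clearest in liver ILC1s against 15.8 and 16.1 CPM in liver NK cells (log2 fold -1.29 ± 0.27, adjusted p = 5.9e-05). Lef1 fell by 1.24 on the log2 scale (SE 0.30, adjusted p = 0.00072), and its relative Tcf7, which encodes TCF-1, rose by 0.62 ± 0.19 (adjusted p = 0.00852). The Lef1 call was lost without ILC1 library 2, and that of Tcf7 without ILC1 library 2, without NK library 2, with the liver libraries fitted alone and under promoter-only scaling. Prdm1, which encodes Blimp1, had 0 of 8 peaks called with edgeR and with DESeq2 and 1 at an unadjusted p below 0.05, with 44.6 and 61.7 CPM at its promoter in liver ILC1s and 43.2 and 57.3 CPM in liver NK cells (log2 fold 0.09 ± 0.20, adjusted p = 0.798). Tbx21, the T-bet gene, rose at 1 of 4 peaks, an intronic one (0.89 ± 0.21, adjusted p = 0.0005).

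Beyond the lists, the peaks with the largest folds lay mostly outside promoters. Among the 12 highest after Cxcr6 was a peak 8.84 kb upstream of Osgin1, an oxidative stress gene, with 23.0 and 23.4 CPM in liver ILC1s, against 4.05 and 3.86 CPM in liver NK cells (log2 fold 2.55 ± 0.29, adjusted p = 1.3e-15). An intronic peak of Zmat4, a zinc finger gene, had 68.2 and 82.1 CPM in liver ILC1s and 16.4 and 15.4 CPM in liver NK cells (log2 fold 2.24 ± 0.20, adjusted p = 3.5e-25). Atp8a2, a phospholipid flippase gene, had 38.3 and 50.8 CPM at an intronic peak in liver ILC1s and 9.53 and 8.69 CPM in liver NK cells (log2 fold 2.29 ± 0.22, adjusted p = 2.2e-23). The other 7, besides Il2ra, were peaks of Glb1 (2.46), Wbp1l (2.39), Inpp4b (2.29), Cenpn (2.27), Grasp (2.26), Trmt61a (2.24) and Ccdc80 (2.16), given as log2 folds. Another Grasp peak was lower. A peak without an assigned gene had the lowest log2 fold of any called peak, -3.69. Among assigned peaks of at least 5 CPM in a liver group, the lowest was an exonic peak of Lpin1, a phosphatidate phosphatase gene, with 2.09 and 3.32 CPM in liver ILC1s against 24.5 and 41.8 CPM in liver NK cells (log2 fold -3.55 ± 0.26, adjusted p = 4.1e-39). Lim2, best known as a lens membrane protein gene, had 3.89 and 4.68 CPM at a promoter peak in liver ILC1s, against 38.6 and 45.7 CPM in liver NK cells (log2 fold -3.27 ± 0.23, adjusted p = 2.5e-40). Nfkb1, a subunit of NF-kB, had 6.88 and 3.61 CPM at an exonic peak in liver ILC1s and 38.9 and 50.3 CPM in liver NK cells (log2 fold -3.15 ± 0.23, adjusted p = 6.2e-39). Other log2 folds were -3.25 at Fbxo31, -3.12 at Syne3, -3.01 at N4bp1, -2.94 at Rora, -2.90 at Ptp4a3, -2.89 at Abcg1, -2.89 at Fyn and -2.88 at Dhrs3. Rora had 5 higher peaks and only this 1 lower among 19, and Fbxo31 and Abcg1 had 2 higher and 1 lower each. Ptp4a3 had 1 higher and 2 lower, Fyn 3 and 7, and Syne3, N4bp1 and Dhrs3 had 0 higher. The Fyn and N4bp1 peaks are promoters in the authors' typing but lie 166 kb and 31.3 kb downstream of the genes' nearest RefSeq start.

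Some genes were covered by many called peaks. Sept9, a septin cytoskeleton gene, had 11 of 18 peaks higher and 1 lower, Sgms1, a sphingomyelin synthase gene, 9 of 14 and 0, Ppp1r16b 9 of 18 and 0, Ptprj, a receptor phosphatase gene, 9 of 19 and 1, and Col15a1, a collagen gene, 8 of 8. Inpp4b, a phosphoinositide phosphatase gene, had 9 higher and 4 lower peaks among 47. Rcbtb2 had 8 of 11 higher and 0 lower, Atp8a2 8 of 15 and 2, and Vav3 7 of 17 and 0. Nav2 was mixed, with 7 of 31 higher and 6 lower. In the lower direction, Nrxn3, a synaptic adhesion gene, had 17 of 30 peaks lower, Pde4d, a cyclic AMP phosphodiesterase gene, 13 of 48 with 1 higher, Mef2c, a MADS-box factor gene, 10 of 15, and Ror1 10 of 15. Nos1ap and Sox5 had 9 lower each, and Sema6a, N4bp1, Nck2 and Syne3 had 7 each.

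Some called peaks lay side by side. In 162 stretches, holding 772 of the 9583 called peaks, 4 or more neighbouring tested peaks were all called in 1 direction. How many such stretches would arise with 18.7% of tested peaks called was not tested. The stretches below were picked after their values were seen. The longest held 13 lower peaks over 98.5 kb at the Klf2 locus (chr8:72267963-72366413), with log2 folds of -2.08 to -0.75. Gzma and Cdc20b shared 7 lower peaks (chr13:113046380-113094839, -2.09 to -0.74), and S1pr1 lay in 6 (chr3:115668946-115693015, -2.14 to -0.89). In the higher direction, 9 peaks over 118 kb spanned Cxcr6, Fyco1 and the chemokine receptor gene Xcr1 (chr9:123806040-123924239, 0.76 to 3.01). The cytokine signal inhibitor Cish and the kinase gene Mapkapk3 lay in a stretch of 10 (chr9:107278421-107341079, 0.68 to 1.28). Ltb, Tnf and Lta lay in one of 8 (chr17:35172782-35220198, 0.62 to 1.59), and Zfp683 in one of 6 (chr4:134041299-134082696, 1.17 to 1.91).

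RNA of liver ILC1s and NK cells from other sorts was set beside the peaks. The mean of the 3 ILC1 groups differed from NK cells at 1014 of 17124 genes (5.92%), 496 higher (2.90%) and 518 lower (3.02%), and at 2168 with the mouse as a block. T cell markers moved with this RNA contrast, with 9 of 15 genes higher and 0 lower (4 to 10 higher over the other settings). Their summed RNA was 2015 to 3676 CPM in the 11 ILC1 libraries and 683 to 1005 CPM in the 4 NK libraries. Cd3g RNA was higher by 6.20 on the log2 scale (adjusted p = 7.73e-05), with 156 to 1153 CPM in ILC1s and 2.07 to 16.7 CPM in NK cells, and Cd3e by 3.45 (adjusted p = 0.0219). The part of these markers in the RNA differences was not tested. Among 63 genes with 4 or more higher peaks and no lower peak, 26 were higher in RNA (41.3%) and 1 was lower. Of 71 genes with 4 or more lower peaks and no higher one, 24 were lower in RNA (33.8%) and 1 was higher. The shares were 1.68% and 2.30% among 7663 genes with no called peak. Over single peaks both readouts were loosely related. Across 10054 genes, the log2 fold of the strongest promoter peak and the RNA log2 fold had a Pearson's r of 0.188 and a Spearman's rho of 0.116, given as a description since genes are not independent. Of 379 genes higher in RNA, 49.1% had a higher promoter peak and 0.528% a lower one. Of 394 lower in RNA, 15.7% had a lower promoter peak and 4.06% a higher one. Among all tested promoter peaks 13.7% were higher and 4.86% lower, a split that moved with scaling. The shares over the strongest promoter peak of every gene were not computed.

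Several genes moved in RNA and at their peaks alike. Cxcr6 RNA stood at 576 to 1642 CPM in the 11 ILC1 libraries (median 1020), against 1.35 to 6.6 CPM in the 4 NK libraries (median 3.99). Zfp683 RNA stood at 54.6 to 207 CPM in ILC1s and 0.261 to 1.63 CPM in NK cells. Zeb2 RNA was lower, at 0.595 to 79.3 CPM in ILC1s and 106 to 380 CPM in NK cells. Zmat4 RNA was at 5.63 to 52.5 CPM in ILC1s and at or below 0.0487 CPM in NK cells. Other genes had RNA differences while their strongest peak was not called. Ccr8, a chemokine receptor gene, had 2.42 to 37.6 CPM of RNA in ILC1s and 0 in all 4 NK libraries, while its promoter peak had 15.9 and 19.6 CPM in liver ILC1s and 17.0 and 14 CPM in liver NK cells (log2 fold 0.20 ± 0.24, adjusted p = 0.62). Irf8, a factor of NK cells and myeloid cells, had an RNA log2 fold of -2.85 (adjusted p = 9e-06) with 0 of 5 peaks called with edgeR and with DESeq2 and 1 at an unadjusted p below 0.05, though its promoter was called lower under 4 of the other scalings. Prf1 RNA had a log2 fold of -2.60 (adjusted p = 5.4e-06) beside the promoter values given above, while 1 of the 4 Prf1 peaks was called higher. Csf1 RNA, which encodes a macrophage growth factor, was higher by 3.52 (adjusted p = 0.00246), and its promoter had 26.2 and 30.6 CPM in liver ILC1s and 32.5 and 32.3 CPM in liver NK cells (log2 fold -0.18 ± 0.19, adjusted p = 0.546).

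Opposite directions also occurred. Tox, a factor of ILC development, had RNA higher by 1.68 (adjusted p = 0.00023), whereas 5 of its 19 peaks were lower and 0 higher. The clearest Tox peak, intronic, had 13.2 and 11.6 CPM in liver ILC1s and 33.4 and 34.4 CPM in liver NK cells (log2 fold -1.46 ± 0.20, adjusted p = 1.1e-10). Tbx21 RNA was lower (log2 fold -1.01, adjusted p = 0.0259) beside its higher intronic peak, but that RNA call was lost without NK of mouse 1 (adjusted p = 0.181), without DN of mouse 6 (0.0505) and with DP alone (0.19). Gzmb RNA was not called over the 3 ILC1 groups (log2 fold -0.10, adjusted p = 0.865) and was called higher with DP alone (0.88, adjusted p = 0.033). Ifng RNA was not called (0.65, adjusted p = 0.416), but it was called in the fit that blocked on mouse (log2 fold 0.75, adjusted p = 0.00164). Gata3 RNA was not called (-0.01, adjusted p = 0.992).

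The liver difference was then set beside that between salivary gland ILC1s and spleen NK cells, which shares no library with it but in which cell type and organ cannot be told apart. There 24745 peaks were called (48.2%), 11281 higher (22.0%) and 13464 lower (26.2%). Of the 5044 peaks higher in liver ILC1s, 2510 (49.8%) were also higher in salivary gland ILC1s and 310 (6.15%) lower. Of the 4539 peaks lower in liver ILC1s, 2877 (63.4%) were also lower and 495 (10.9%) higher. The test of the difference between both contrasts called 15404 of all peaks (30.0%), with the liver log2 fold above the other at 8505 (16.6%) and below it at 6899 (13.5%).

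The Cxcr6 promoter had 21.3 and 24.2 CPM in salivary gland ILC1s and 2.46 and 1.66 CPM in spleen NK cells, and its liver and other folds differed by -0.43 without a call (adjusted p = 0.452). At Zmat4 and Tnfsf10 the folds differed by 0.01 (adjusted p = 0.977) and 0.00 (adjusted p = 0.992), also without a call. Il7r went the other way outside the liver. Its promoter peak had 3.90 and 2.64 CPM in salivary gland ILC1s and 9.49 and 9.96 CPM in spleen NK cells, and the liver log2 fold exceeded the other by 2.90 (adjusted p = 1.4e-13). At Tcf7 and Id3 the liver fold was likewise the higher one. Tcf7 had 8.89 and 10.7 CPM in salivary gland ILC1s and 25.2 and 26.1 CPM in spleen NK cells (difference 2.00, adjusted p = 1.1e-11), and Id3 10.3 and 11 CPM in salivary gland ILC1s and 15.1 and 13.1 CPM in spleen NK cells (difference 1.98, adjusted p = 9e-08), where the fold outside the liver was itself not called (-0.40, adjusted p = 0.121). For Klrc1 the difference was 2.03 (adjusted p = 4.8e-10), and for P2rx7 1.39 (adjusted p = 0.001). In contrast, the Gzmc promoter rose more outside the liver, with 21.6 and 24.8 CPM in salivary gland ILC1s and 2.78 and 2.83 CPM in spleen NK cells (difference -1.38, adjusted p = 0.00305). At Zeb2 the loss was larger in the liver. Its peak had 12.2 and 12.4 CPM in salivary gland ILC1s and 24.5 and 18.8 CPM in spleen NK cells (difference -1.95, adjusted p = 8.3e-07).

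**Figure D5:**
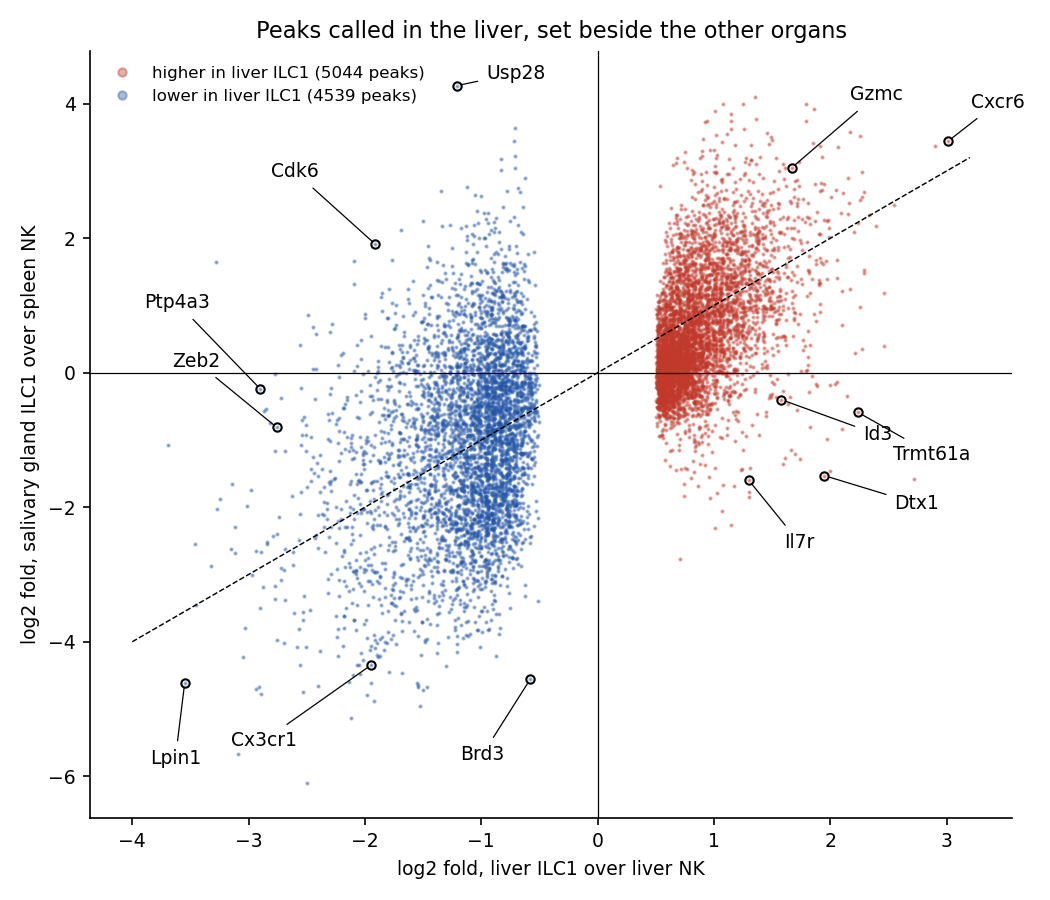
Peaks called in the liver are placed by their log2 fold of liver ILC1s over liver NK cells (x axis) and of salivary gland ILC1s over spleen NK cells (y axis), red where higher and blue where lower in liver ILC1s; the dashed line marks equal folds. Cxcr6 lies near the line, Il7r falls below 0 outside the liver, and Usp28 and Cdk6 lie above 0 there while lower in liver ILC1s.

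Among liver-called peaks, the 10 with the smallest p in each direction of this test were led by Brd3 and Samd12 on the positive side and by Cdk6 and Wdyhv1 on the negative. An intronic peak of Brd3, a bromodomain gene, had 25.7 and 24.2 CPM in liver ILC1s and 32.0 and 42.8 CPM in liver NK cells, but 2.46 and 2.14 CPM in salivary gland ILC1s and 56.9 and 51.1 CPM in spleen NK cells. The liver call was lost under 4 other settings at the Brd3 peak, 3 at that of Samd12, 5 at those of Wdyhv1 and Usp28, and 0 at Cdk6. An intronic peak of Dtx1, a Notch pathway ligase gene, had 21.8 and 30.4 CPM in liver ILC1s against 6.79 and 6.76 CPM in liver NK cells, and 0.821 and 2.31 CPM in salivary gland ILC1s against 4.91 and 4.79 CPM in spleen NK cells. Cdk6, a cell cycle kinase gene, had 8.53 and 7.61 CPM at an intronic peak in liver ILC1s and 29.0 and 31.2 CPM in liver NK cells, whereas salivary gland ILC1s had 99.5 and 101 CPM and spleen NK cells 28.2 and 25.3 CPM. Liver ILC1s were thus the lowest of the 4 groups at the Cdk6 peak and salivary gland ILC1s the highest.

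Markers of other cells were measured in the same liver libraries. T cell markers had peaks at 10 of 16 genes, of which 3 of 24 were higher and 3 lower (12.5% each, beside 9.83% and 8.85% of all tested peaks). Their summed levels were 388 and 460 CPM in liver ILC1s and 366 and 425 CPM in liver NK cells. Cd3d and Cd3e, chains of the T cell receptor complex, were higher at promoter peaks by 0.62 ± 0.20 (adjusted p = 0.0153) and 0.73 ± 0.27 (adjusted p = 0.0412). Cd3d lost its call under 3 other settings and Cd3e under 9, each time without ILC1 library 2 among them. B cell markers had 0 of 18 peaks higher and 5 lower (0 lower without ILC1 library 2 or without NK library 1), and sums of 166 and 156 CPM in liver ILC1s against 203 and 188 CPM in liver NK cells. ILC2 and ILC3 markers had 4 of 42 higher (9.52%) and 3 lower (7.14%), near the shares of all peaks. Kupffer cell markers had 0 of 7 peaks called in either direction with edgeR and with DESeq2 and 1 at an unadjusted p below 0.05, and hepatocyte markers 1 of 13 higher and 1 lower. Endothelial and stellate cell markers had 1 of 22 higher and 3 lower. Of the neutrophil list 2 of 10 genes had peaks, 3 of 5 peaks were higher, and all 3 belonged to Mmp9, a matrix protease gene. Mmp9 RNA was likewise higher, at 235 to 1030 CPM in ILC1s and 0.843 to 12.7 CPM in NK cells, and was the only gene called among the 9 of that list tested in RNA. Summed levels of the neutrophil peaks were 100 and 115 CPM in liver ILC1s and 64.7 and 70.8 CPM in liver NK cells. The part of other cells in the differences above was not tested.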

How the data were processed

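The authors deposited raw read counts per peak for the 8 ATAC-seq libraries over 1 shared peak set, each peak with a gene and a type. Bowtie2, SAMtools and MACS2 on mm10 are named in the submitters' processing notes; duplicate handling, the transposase shift and whether peaks were called on pooled libraries are not given in the sources used here. The deposited RNA table holds whole-number expected counts per gene, with Salmon 1.6 named in the submitters' processing notes. Peaks and genes were filtered with filterByExpr (minimum count 10) and tested with edgeR 4.0.16 (quasi-likelihood, robust, TMM; R 4.3.3) over all libraries of an assay, which left 4 residual degrees of freedom for ATAC-seq and 11 for RNA-seq. P-values were Benjamini-Hochberg adjusted over all features, with a threshold of 0.05. An SE from edgeR is the size of the log2 fold divided by the square root of its F statistic. For ATAC-seq the median prior degrees of freedom were infinite, so the typical peak took the spread shared among peaks. Steps were tested on simulated data. DESeq2 1.42.0, other scalings, thinning, left-out libraries and a replicate block were alternatives. The mouse numbers of the RNA-seq labels mark the same animal across groups.

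Peaks were named by rule: the 12 highest and 12 lowest log2 folds with an assigned gene that is not a predicted one, at least 5 CPM in 1 liver group and no overlap, the 10 genes with most called peaks in each direction, the strongest and clearest peaks of listed genes, and the 10 clearest differences from the other organs in each direction. One gene picked by this rule is not reported here. Members and gene lists were chosen with earlier results of these data known. Scaling promoter peaks apart from other peaks was chosen after seeing the data. Coordinates are printed as in the deposited table.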

Additional observations from a re-analysis of the deposited data

Results flagged for a closer look

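The liver fold of ILC1s over NK cells differed from the salivary gland ILC1 over spleen NK fold at 57 of 105 named peaks, by edgeR's test of the difference itself with an adjusted p below 0.05. Values in brackets are that difference, liver minus other, on the log2 scale. Among the peaks with the highest and lowest liver folds it was positive at Atp8a2 (0.76), Cenpn (1.92), Il2ra (1.28), Trmt61a (2.83), Lpin1 (1.07), Rora (1.76) and Abcg1 (1.89), and negative at Lim2 (-1.24), Fbxo31 (-1.37), N4bp1 (-1.03) and Ptp4a3 (-2.66). Among peaks of listed genes it was positive at S1pr5 (1.24), Klf2 (1.00), Klf2 (2.30), Itgam (0.78), Cma1 (1.14), Cx3cr1 (2.40), Gzma (0.78), Il7r (2.90), Id3 (1.98), Bcl11b (0.85), Tcf7 (2.00), Ifng (0.76), P2rx7 (1.39), Cd160 (1.02), Klrc1 (2.03), Ncr1 (0.79) and Actb (1.12), and negative at Eomes (-0.70), Zeb2 (-1.95), Klra7 (-1.61), Gzmc (-1.38), Gzmb (-0.95), Tmem176a (-2.35), Tox (-1.13), Nr4a2 (-1.83) and Itgae (-0.85). Klf2 appears with its promoter first and its downstream peak second. The peaks named for this difference were Brd3 (3.98), Samd12 (3.48), Nck2 (2.89), Cmklr1 (2.95), Plcb4 (2.70), Peli2 (2.31), Sh3pxd2a (3.07), Dtx1 (3.49), Gpr132 (2.68) and Sult2b1 (3.13) on the positive side, and Cdk6 (-3.81), Wdyhv1 (-3.93), Tmem123 (-4.01), Igha (-3.52), Adamts17 (-3.75), Zcchc14 (-4.17), Usp28 (-5.48), Dync1li2 (-2.98), Cmbl (-3.36) and Ndufs4 (-3.00) on the negative; the selection fixes their size.

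In 12 of 99 RNA groups of 4 libraries, 1 library lay far from the other 3. The 99 include the NK groups of Ccr8 and Pdcd1, at 0 in all 4 libraries, which could not be flagged. The cutoff flags about 1 in 20 groups for independent normal values. CPM values of chosen genes from the same libraries need not be so, and whether 12 exceeds chance was not tested. The high libraries in FMSP had 37.6 CPM for Ccr8, 399 CPM for Irf8, 82.0 CPM for Klrg1, 0.693 CPM for Lim2, 1059 CPM for Tbx21 and 52.5 CPM for Zmat4. In DP, the high libraries had 10.6 CPM for Cx3cr1 and 26.6 CPM for Il2, and the low one 129 CPM for Tnfsf10. In NK cells, the low library had 1176 CPM for Gzmb, and the high ones 0.206 CPM for Il2 and 2141 CPM for Tbx21.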

How the results depend on the processing

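The 9583 liver calls became 5700 at an adjusted p below 0.01 (2913 higher, 2787 lower) and 3742 with a log2 fold of at least 1 in size as well, both by construction. Leaving out 1 liver library gave 4305 to 11437 calls, with 4305 without ILC1 library 2, 5752 without NK library 1 and 6220 without NK library 2; the lone library was assumed to vary like the other groups. DESeq2 called 7042, of which 6984 were shared, and the liver libraries fitted alone gave 7629. The replicate numbers did not clearly pair the ATAC libraries (deviations of the liver libraries correlated at 0.179), and the fit with the replicate block called 9850. Scaling moved the share of higher calls from 52.6% to 29.7% with promoter peaks alone, to 43.6% with library totals and to 45.1% with loess offsets. The 1014 RNA calls became 1850 with DESeq2, 2168 with the mouse as a replicate block and 2392 with mice 4 to 6 alone, and 732 to 1199 with 1 library left out; the cause was not tested. Of 96 called named peaks 71 kept their call under each of the 14 alternatives run on them. A change of direction was counted only where the peak was called in the main fit or the alternative. By that rule 0 of 1470 pairs of peak and alternative changed direction, and changes of sign at uncalled peaks were not counted. With 5609587 to 9957335 counts per liver library, small folds at weak peaks were not detectable.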
